A study of Arabidopsis thaliana with 33 samples.

Results

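The genes described here are 10 members of the ETHYLENE RESPONSE FACTOR (ERF) family of Arabidopsis thaliana. They are ABR1, RAP2.6, RAP2.6L, ERF1, ORA59, ERF5, ERF6, ERF13, ERF104 and ERF105. They were chosen by name, and the set was picked because ABR1 and RAP2.6 are strongly higher in brm mutant shoots. Their values in brm are therefore a description. The authors' calls and p-values there are given as they stand and are no test of the set. The 10 genes stand among 23044 genes listed in at least 1 of 3 RNA-seq tables, and all 10 are listed in each of the 3.

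ERF proteins are plant transcription factors that bind short GC-rich elements in promoters through an AP2 domain. Many are switched on within minutes by wounding, touch, pathogens, cold or osmotic stress, and by the hormones ethylene and jasmonate. In leaves, some activate defence genes and others slow growth under stress. ABR1, RAP2.6 and RAP2.6L belong to ERF group X, and the other members to group IX.

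Shoots with 4 to 5 leaves came from the mutants arp6-1 and brm-1, from arp6-1;brm-1, called arp6;brm below, and from wild type (WT). All plants grew on soil under 16 h of light and 8 h of dark. ARP6 belongs to the SWR1 complex, which exchanges H2A for the histone variant H2A.Z in nucleosomes. BRM, or BRAHMA, is the motor ATPase of SWI/SNF chromatin remodelling complexes. RNA-seq of nuclear RNA had 3 libraries in each of the 4 genotypes, and MNase-seq, which maps nucleosomes, had 2 that were pooled into 1 data set per genotype. H2A.Z was mapped by chromatin immunoprecipitation (ChIP) in 2 libraries each of arp6, brm and WT. Genomic DNA came from mature rosette leaves of 50 pooled arp6 plants. Each mutation was studied as 1 allele and is present in the whole plant. The series title names the joint and opposed action of H2A.Z and BRM on transcription and nucleosomes as the question.

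The RNA-seq tables hold 1 fold change per gene and no value per library, so the depth of each library is unknown. The targeted transcripts were low in the lines that carry each mutation. By the authors' deposited tables the log2 fold change of ARP6 was -5.73 for arp6 and -5.60 for arp6;brm, and that of BRM was -5.64 for brm and -8.87 for arp6;brm. Leaf markers had average log2 CPM (library-scaled counts) of 8.61 to 12.3 per the authors' deposited tables. Of 4 root markers, 2 were listed, both under 0. Of 4 floral markers, AP3, PI and AG lay at -3.14 or below. The fourth, SEP3, was called higher in arp6 and arp6;brm with log2 fold changes of 3.96 and 2.99 per the authors' deposited tables, beside all member results in those lines, and its part in them was not tested. The 6 H2A.Z libraries held 5553946 to 15765419 tags per the file headers.

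A gene was called at an adjusted p-value under 0.05 over all rows of its table. In arp6, 5 of the 10 members were called per the authors' deposited table, where 6.03% of all 22046 genes were. ERF6, ERF13, ERF104 and ERF105, all of group IX, rose and RAP2.6 fell, against 3.01% of all genes called higher and 3.02% called lower. In arp6;brm, 2 members were called per the authors' deposited table, where 13.3% of 22352 genes were. ERF13 rose and ERF104 fell there, against 6.16% called higher and 7.14% called lower. In brm, the contrast the members were picked on, 3 were called per the authors' deposited table, where 13.8% of 21925 genes were. ABR1 and RAP2.6 were higher and ERF104 was lower, beside 7.62% of all genes called higher and 6.14% called lower. The median log2 fold change of the 10 members was 1.15 for arp6, 0.96 for brm and -0.29 for arp6;brm per the authors' deposited tables. Over all genes it was -0.02, -0.02 and 0.00. The brm median includes ABR1 and RAP2.6, for which the set was picked. Without them the median of the other 8 members was 1.15 for arp6, 0.34 for brm and -0.29 for arp6;brm, from the same tables. The 3 comparisons share the same WT libraries, so they are not independent of each other. Whole shoots were sampled, so a change in the number of cells that express a gene cannot be told apart from a change in RNA per cell.

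**Figure D1:**
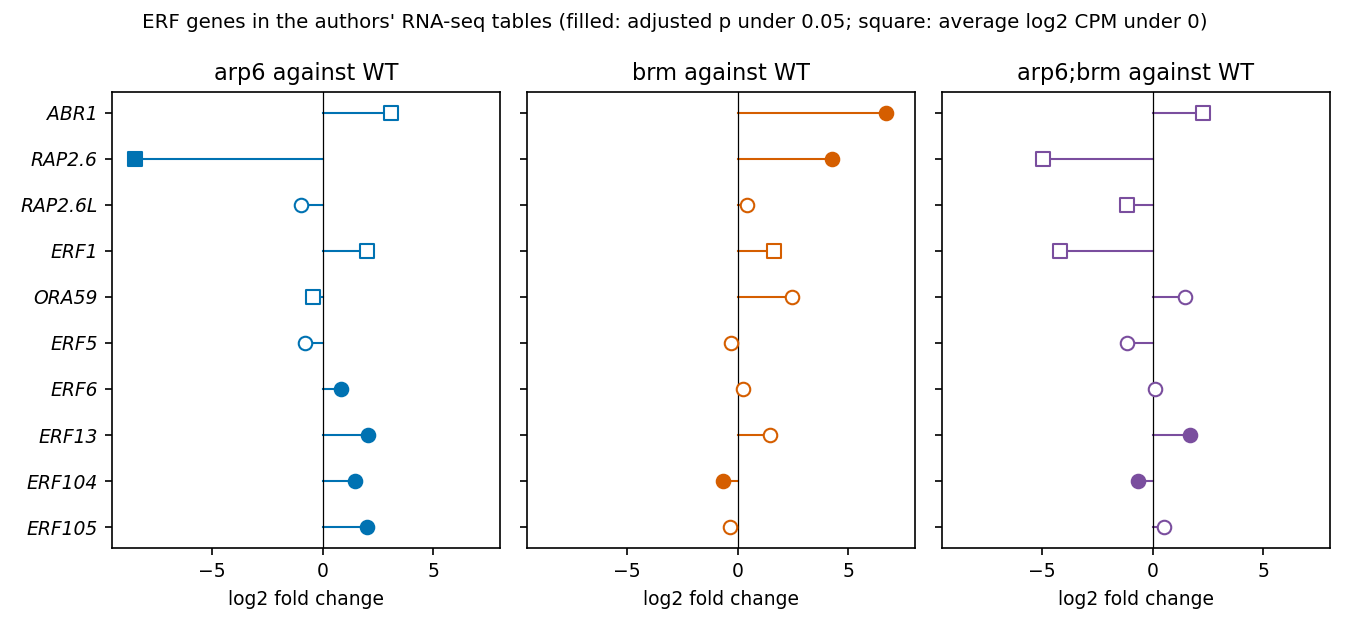
Log2 fold change (x axis) of each of the 10 ERF genes (rows) in arp6, brm and arp6;brm against WT, from the authors' deposited tables. Filled points mark calls (adjusted p under 0.05), and squares mark genes with an average log2 CPM under 0 in that table. The plot shows 4 filled points to the right in arp6 and 1 in arp6;brm. Of all genes, 3.01% and 6.16% were called higher there. The 2 in brm are ABR1 and RAP2.6, for which the set was picked, beside 7.62% of all genes called higher.

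A level in CPM per genotype was solved from the average log2 CPM and the log2 fold change of each of the authors' deposited tables. Each table gives its own WT level, so there are 3 WT values from the same 3 libraries. For 9 members the highest WT value was at most 1.2 times the lowest, and for ERF1 it was 1.93 times. Levels near the lowest average of any listed gene, 0.0512 to 0.054 CPM, rest on few or no reads. A fold change against such a level depends on the prior count the authors' software adds.

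ABR1 (AT5G64750, chromosome 5) was named as a repressor of abscisic acid responses and is induced by wounding. Its level was 0.483 CPM in arp6, 5.08 CPM in brm and 0.28 CPM in arp6;brm, against 0.0485 to 0.0583 CPM in WT, solved from the authors' deposited tables. The WT level lies at the bottom of the tables, so ABR1 was barely read in WT shoots, and it was read most in brm. The log2 fold changes of ABR1 per the authors' deposited tables were 3.11 in arp6, with an adjusted p of 0.309, and 2.27 in arp6;brm, with 0.224. In brm it was 6.71, the value on which the set was picked. ABR1 had an average log2 CPM of -1.89 in arp6 and -2.56 in arp6;brm per the authors' deposited tables, so the positive values in those lines rest on few reads and were not called.

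RAP2.6 (AT1G43160, chromosome 1) is an activator induced by jasmonate, wounding and salt. Its level was 19 CPM in brm, against 0.998 to 1.19 CPM in WT, solved from the authors' deposited tables. In arp6 and arp6;brm the solved levels were under the lowest average of any listed gene. The gene was thus read in WT shoots and hardly or not at all in both lines with the arp6 mutation. By the authors' deposited table of arp6 RAP2.6 fell by 8.48 on the log2 scale, at an adjusted p of 0.0448, close to the threshold. In arp6;brm the log2 fold change of RAP2.6 was -4.95 with an adjusted p of 0.112 per the authors' deposited table. Both sizes depend on the prior count. The average log2 CPM of RAP2.6 was -0.74 in arp6 and -0.75 in arp6;brm per the authors' deposited tables, so WT libraries carry nearly all its reads there. In brm the log2 fold change was 4.25 per the authors' deposited table, and the deposited unadjusted p of 0.00159 implies a standard error of 1.35.

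RAP2.6L (AT5G13330, chromosome 5), a close relative of RAP2.6 linked to shoot regeneration and the rejoining of cut stems, was not called in any table. Its level was 0.684 CPM in arp6, 1.65 CPM in brm and 0.559 CPM in arp6;brm, against 1.22 to 1.34 CPM in WT, solved from the authors' deposited tables. The log2 fold changes of RAP2.6L were -0.97, 0.44 and -1.16 in arp6, brm and arp6;brm per the authors' deposited tables, at adjusted p-values of 0.728, 0.886 and 0.522. The standard errors implied by the deposited p-values were 1.05, 1.15 and 1.00 on the log2 scale, so changes of RAP2.6L of such a size were not detectable. The other genes of group X gave 1 call in 2 of the tables. ERF109, also known as RRTF1 and linked to reactive oxygen and jasmonate, rose in arp6 and in brm with log2 fold changes of 2.48 and 2.55 per the authors' deposited tables. The adjusted p of ERF109 was 0.000533 in arp6 and 0.000617 in brm. Called higher among all genes were 3.01% in arp6 and 7.62% in brm. In arp6;brm the log2 fold change of ERF109 was -1.36 with an adjusted p of 0.489 per the authors' deposited table, where none of 4 listed group X genes was called and 0 had an unadjusted p under 0.05.

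**Figure D2:**
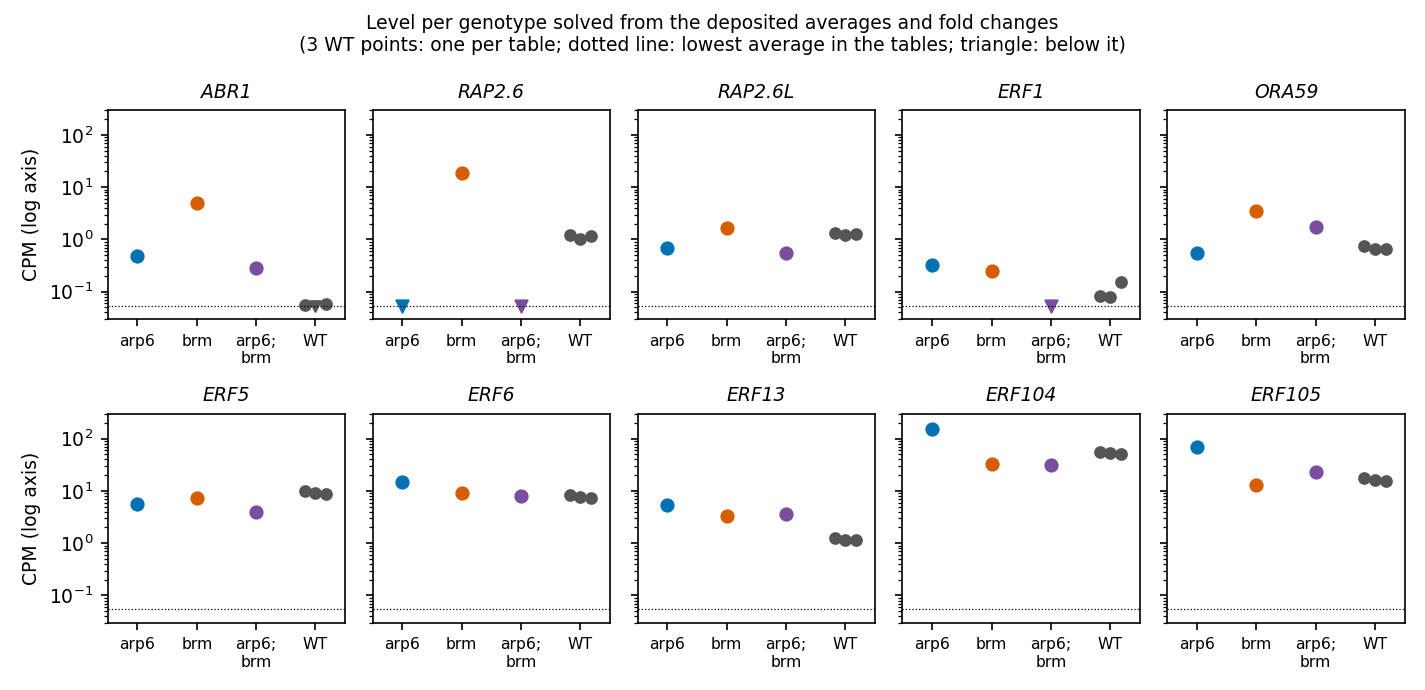
Level in CPM (log y axis) of each ERF gene in arp6, brm, arp6;brm and WT (x axis), solved from the authors' deposited averages and fold changes. The 3 WT points come from the 3 tables and the same libraries, and triangles mark levels under the lowest average listed (dotted line). ABR1 and RAP2.6 are highest in brm, at 5.08 and 19 CPM, and ERF104 and ERF105 in arp6, at 154 and 70.2 CPM.

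ERF1 (AT3G23240, chromosome 3) and ORA59 (AT1G06160, chromosome 1) combine ethylene and jasmonate signals to activate defensin genes. ERF1 was read at the bottom of the tables, with 0.329 CPM in arp6, 0.25 CPM in brm and a level under the lowest listed average in arp6;brm, against 0.0805 to 0.155 CPM in WT. These ERF1 levels were solved from the authors' deposited tables. No direction can be read for ERF1, whose adjusted p-values were 0.639, 0.677 and 0.431 in arp6, brm and arp6;brm per the authors' deposited tables. ORA59 had 0.551 CPM in arp6, 3.56 CPM in brm and 1.75 CPM in arp6;brm, against 0.642 to 0.739 CPM in WT, solved from the authors' deposited tables. The log2 fold changes of ORA59 were -0.43, 2.45 and 1.45 per the authors' deposited tables of arp6, brm and arp6;brm, and none was called, at adjusted p-values of 0.945, 0.106 and 0.439.

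ERF5 (AT5G47230, chromosome 5) and ERF6 (AT4G17490, chromosome 4) are close relatives that act in chitin responses and in the slowing of leaf growth under osmotic stress. ERF5 had 5.63 CPM in arp6, 7.48 CPM in brm and 3.95 CPM in arp6;brm, against 8.83 to 9.78 CPM in WT, solved from the authors' deposited tables. It lay under WT in all 3 mutants and was not called in any, with log2 fold changes of -0.80, -0.28 and -1.16 per the authors' deposited tables. The adjusted p of ERF5 was 0.0758 in both the arp6 and the arp6;brm table of the authors' deposited tables, and 0.689 in that of brm. ERF6 had 14.8 CPM in arp6, 9.04 CPM in brm and 8.01 CPM in arp6;brm, against 7.44 to 8.25 CPM in WT, solved from the authors' deposited tables. ERF6 rose in arp6 by 0.84 on the log2 scale, at an adjusted p of 0.0241 per the authors' deposited table. The interval implied by the deposited p runs from 0.33 to 1.35 at the 95% level. In brm and arp6;brm the log2 fold changes of ERF6 were 0.24 and 0.11 per the authors' deposited tables, at adjusted p-values of 0.709 and 0.872. In arp6 the signs of ERF5 and ERF6 thus differed, a contrast for which no test was made.

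ERF13 (AT2G44840, chromosome 2), a group IX gene induced early by wounding, was the member with positive log2 fold changes and unadjusted p-values under 0.05 in all 3 tables. Its level was 5.3 CPM in arp6, 3.26 CPM in brm and 3.66 CPM in arp6;brm, against 1.14 to 1.26 CPM in WT, solved from the authors' deposited tables. ERF13 rose in arp6 by a log2 fold change of 2.07 with an adjusted p of 0.00934, and in arp6;brm by 1.69 with 0.0369, per the authors' deposited tables. The 95% intervals implied by the deposited p-values run from 0.94 to 3.21 in arp6 and from 0.53 to 2.85 in arp6;brm. In brm ERF13 had 1.47 with an adjusted p of 0.191 per the authors' deposited table. The intervals of ERF13 overlap, and the mutants were not tested against each other.

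ERF104 (AT5G61600, chromosome 5) is released from the kinase MPK6 in the response to bacterial flagellin, and ERF105 (AT5G51190, chromosome 5) acts in cold and freezing tolerance. ERF104 had 154 CPM in arp6, 32.7 CPM in brm and 31.6 CPM in arp6;brm, against 50.6 to 56.2 CPM in WT, solved from the authors' deposited tables. It was above WT in arp6 and under WT in both lines with the brm mutation. ERF104 rose 2.74-fold in arp6, a log2 fold change of 1.45 with an adjusted p of 2.43e-10 per the authors' deposited table, and ranked 106 among all genes by p. The implied 95% interval runs from 1.05 to 1.85. In arp6;brm the log2 fold change of ERF104 was -0.68, and it fell at an adjusted p of 0.0252 per the authors' deposited table. The implied 95% interval there runs from -1.12 to -0.24. In brm, where values are descriptive, the log2 fold change of ERF104 was -0.67 per the authors' deposited table.

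ERF105 had 70.2 CPM in arp6, 12.8 CPM in brm and 22.6 CPM in arp6;brm, against 15.8 to 17.5 CPM in WT, solved from the authors' deposited tables. Of the 10 members it had the smallest p in arp6, where it ranked 61 among all genes. It rose 4.01-fold there, a log2 fold change of 2.00 with an adjusted p of 1.91e-15 per the authors' deposited table. The implied 95% interval runs from 1.55 to 2.46. In arp6;brm the log2 fold change of ERF105 was 0.51 with an adjusted p of 0.113, and in brm -0.35 with 0.448, per the authors' deposited tables. The annotated span of ERF105 lies inside that of AT5G51180, and whether reads were counted by strand is not given in the sources used here. The log2 fold change of AT5G51180 itself was -0.04 in arp6, 0.21 in brm and 0.22 for arp6;brm per the authors' deposited tables and was not called. ABR1 overlaps its neighbour RPN5B by 109 bp, and RPN5B had log2 fold changes of 0.05, -0.08 and -0.19 in the same order per the authors' deposited tables, none called.

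Genes whose 3 log2 fold changes lay nearest to those of ABR1 and RAP2.6 were sought among 16026 genes whose average log2 CPM in the brm table was 0 or more, as a description over 3 comparisons that share WT. The distances use the brm values on which both genes were picked, and fold changes in arp6 and arp6;brm that rest on few reads. Nearest to ABR1 were AT1G49000, CYP71A13 and AT1G49450, at Euclidean distances of 1.11, 1.74 and 1.93 on the log2 scale. The log2 fold change of AT1G49000 was 2.07 in arp6, 6.35 in brm and 2.32 for arp6;brm per the authors' deposited tables. Nearest to RAP2.6 were AT4G15975, AT4G01920 and ILL5, at distances of 2.74, 3.07 and 3.34. AT4G15975 had log2 fold changes of -8.16, 2.36 and -2.99 per the authors' deposited tables of arp6, brm and arp6;brm. AT1G49000 had an average log2 CPM of 1.54 in the brm table and -2.14 in both others. The other nearest genes also lay under 0 in both the arp6 and the arp6;brm table, at -0.80 to -3.26. Each of these genes thus passed the filter only through its average in the brm table, the contrast of the pick. AT4G01920 was not called in brm, with an adjusted p of 0.193 per the authors' deposited table.

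Another 10 genes of group IX were read beside the members. In arp6, 4 of 6 listed genes were called per the authors' deposited table, all higher, beside 3.01% of all genes called higher. ERF2 had a log2 fold change of 1.89, ERF1A 1.10, ERF106 0.59 and ERF107 0.55 per the authors' deposited table of arp6. In arp6;brm 3 of 7 listed genes were called per the authors' deposited table, all lower, beside 7.14% of all genes called lower. They were ERF1A with -2.32, ERF107 with -0.93 and ERF098, also known as TDR1, with -7.11 at an average log2 CPM of -1.85. In brm ERF2 was the 1 of 6 listed genes called per the authors' deposited table, with 2.46. The share of all genes called higher in brm was 7.62%. ERF1A and ERF107 had the same pair of directions as ERF104, up in arp6 and down in arp6;brm. In brm ERF1A and ERF107 had 0.57 and 0.54 and were not called, where ERF104 was lower. ERF107 is the next gene to ERF104 in the annotation, at a distance of 832 bp, ERF1A is next to ERF6 at 5041 bp, and ERF098 is next to ERF1 at 5452 bp.

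Early touch and wounding genes, which are induced within minutes alongside several members, had the most calls of the 9 context lists in arp6. The lists were chosen with earlier results of these data known, so this order is a description. Of 9 genes, 7 rose in arp6 per the authors' deposited table, none fell, and the median log2 fold change was 1.15. In arp6;brm none rose, 6 fell, and the median was -1.06 per the authors' deposited table. In brm 1 rose and 1 fell per the authors' deposited table, with a median of 0.02. Of all genes, 3.01% were called higher in arp6, 7.14% lower in arp6;brm, and 7.62% higher and 6.14% lower in brm. TCH4, a cell wall xyloglucan enzyme induced by touch, had log2 fold changes of 1.75 for arp6, -0.91 for brm and -1.95 for arp6;brm per the authors' deposited tables, called in arp6 and arp6;brm. TCH3, a calmodulin-like protein, had 1.55, 1.68 and -1.93 per the authors' deposited tables of arp6, brm and arp6;brm, called in all 3. ZAT10, a stress-induced zinc finger repressor, had 1.22, -0.23 and -0.79 per the authors' deposited tables, called in arp6 and arp6;brm. CML38, a calmodulin-like gene induced by wounding, rose in arp6 with 1.88 and was not called in the other lines, with 0.29 for brm and -0.89 for arp6;brm, per the authors' deposited tables. DREB26, an AP2-type activator, fell in arp6;brm with -3.60, and TCH2, another calmodulin-like gene, fell in brm with -1.08 and in arp6;brm with -1.06, per the authors' deposited tables. The part of touch or wounding in the member values was not tested.

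The list of kinases upstream of ERF6 and ERF104 holds 5 genes. MPK3, whose protein phosphorylates ERF6, rose in arp6 with a log2 fold change of 1.23 and fell in arp6;brm with -0.73 per the authors' deposited tables. These are the directions of ERF104 in those lines. In brm MPK3 had 0.52 and was not called, where ERF104 was lower. MPK3 was the 1 of 5 genes of the kinase list called in arp6, and MPK6 with 0.71 the 1 of 5 called in brm, per the authors' deposited tables. Beside them, 3.01% of all genes were called higher in arp6 and 7.62% in brm. In arp6;brm MKK5, a kinase of MPK3 and MPK6, rose with 0.68 per the authors' deposited table. There 6.16% of all genes were called higher and 7.14% lower.

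Ethylene signalling genes were mostly called in brm, where 5 of 11 rose per the authors' deposited table and none fell. The shares of all genes called higher and lower in brm were 7.62% and 6.14%. EBF2 and EBF1, which target the transcription factor EIN3 for breakdown, had log2 fold changes of 1.77 and 0.65 per the authors' deposited table of brm. The receptor gene ERS1 had 1.05 and the kinase gene CTR1 0.74 there. In arp6 the 1 call was EIL1, a relative of EIN3, with -0.60, and in arp6;brm it was EBF2 with 0.82, per the authors' deposited tables. Of 10 listed ethylene synthesis genes, the oxidase gene ACO4 rose in brm with 1.55 and the synthase gene ACS6 fell with -1.51 per the authors' deposited table. None of the 10 was called in arp6 or arp6;brm per the authors' deposited tables, and 2 and 1 had an unadjusted p under 0.05.

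Of 7 defence genes activated by ERF1 and ORA59, 4 rose in brm per the authors' deposited table, beside 7.62% of all genes. The defensin genes PDF1.2A, PDF1.2B and PDF1.3 had log2 fold changes of 5.00, 7.65 and 4.68, at average log2 CPM of -0.41, -1.54 and -0.87. These defensin genes are near-identical copies that can share reads, so the value of each is uncertain. PR4, which encodes a chitin-binding protein, had 1.02 at an average log2 CPM of 4.11 per the authors' deposited table of brm, and in arp6 it fell with -0.99. None of the 6 listed was called in arp6;brm per the authors' deposited table, and 0 had an unadjusted p under 0.05. ERF1 and ORA59 themselves were not called in brm, as given above. Of 8 repressor ERF genes with an EAR motif, ERF9, ERF11 and ERF4 rose in brm with 2.70, 2.00 and 1.61, and ERF8 in arp6;brm with 1.57, per the authors' deposited tables. Among all genes, 7.62% were called higher in brm and 6.16% in the line with both mutations. None of the 8 was called in arp6 per the authors' deposited table, and 0 had an unadjusted p under 0.05. Of the wounding and regeneration regulators, ESR1 rose in brm with 3.73 at an average log2 CPM of -1.17 and WIND1 fell in arp6 with -0.69, per the authors' deposited tables. None of 4 listed was called in arp6;brm per the authors' deposited table, and 0 had an unadjusted p under 0.05.

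**Figure D3:**
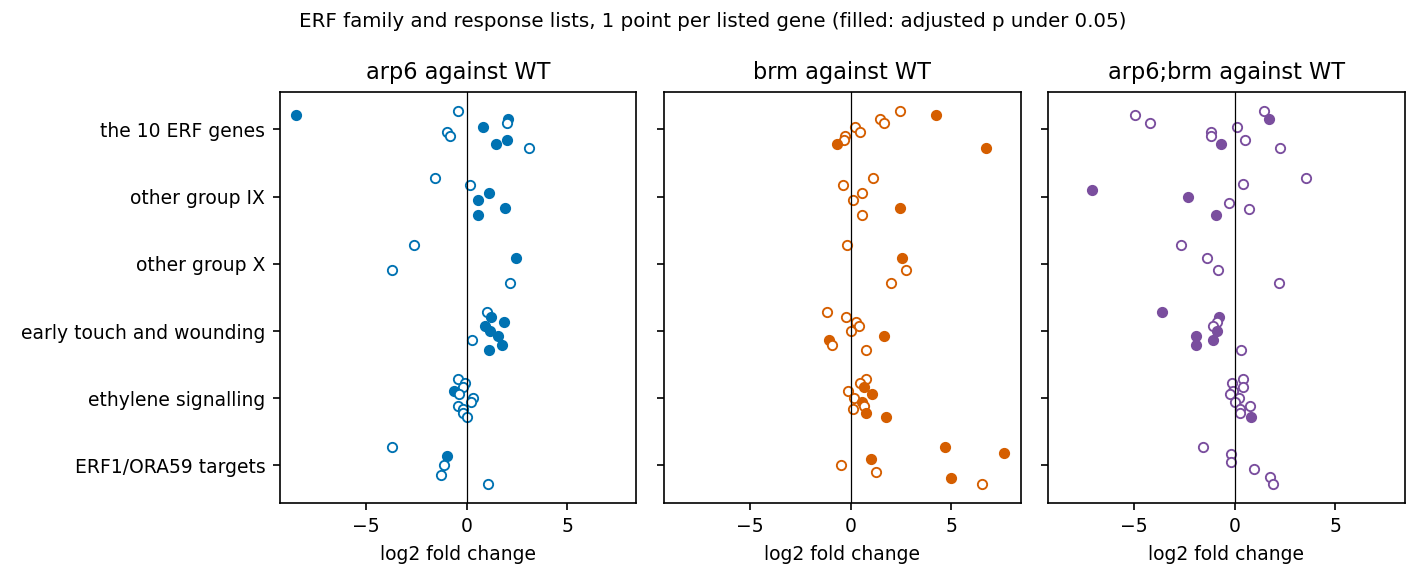
Log2 fold change (x axis) of each listed gene (points) for the 10 ERF genes and 5 context lists (rows) in arp6, brm and arp6;brm against WT, from the authors' deposited tables, with filled points for genes called at an adjusted p under 0.05. The early touch and wounding genes have 7 called points right of 0 in arp6 and 6 left of 0 in arp6;brm. Ethylene signalling genes have 5 right of 0 in brm. Of all genes, 3.01% were called higher in arp6, 7.14% lower in arp6;brm and 7.62% higher in brm.

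Of 20 genes next to a member in the annotation, 15 were listed. In arp6 2 of the 15 were called (13.3%), in brm 3 (20%) and in arp6;brm 6 (40%), beside the 6.03%, 13.8% and 13.3% of all genes given above, and 7 were called in at least 1 table. They include ERF1A and ERF107, called in arp6 and arp6;brm, and ERF098, called in arp6;brm, with the values given above. NUDT8, next to ERF5 at 2340 bp, rose in brm with a log2 fold change of 2.12 and fell in arp6;brm with -0.95 per the authors' deposited tables. CESA6, next to ABR1 at 4720 bp, rose in brm and arp6;brm with 0.58 and 0.64 per the authors' deposited tables. RP1, next to RAP2.6 at 1607 bp, fell in brm with -0.91, where RAP2.6 was higher, and PBS3, next to RAP2.6L at 665 bp, rose in arp6;brm with 1.81, per the authors' deposited tables.

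H2A.Z at the members was read as the presence of a deposited peak on the annotated gene span. The peak lists hold positions without a strength. In arp6, replicate 1 had a peak on 3 members, ERF1, ORA59 and ERF105, where 10.8% of 27444 protein-coding genes had one, and replicate 2 on none, where 11.3% had one. No member had a peak in both arp6 lists, where 3.75% of genes did. In brm each replicate had a peak on 7 members, where 57.3% and 51.2% of genes had one. Both brm lists held RAP2.6, RAP2.6L, ERF1, ORA59 and ERF13, where 43.2% of genes had a peak in both. In WT replicate 1 held 4 members, where 34.9% of genes had a peak, and replicate 2 held all 10, where 56.3% did. With either replicate counted, 3 members had a peak in arp6, 9 in brm and 10 in WT, where 18.3%, 65.3% and 60.1% of genes did. The 4 members with a peak in both WT lists were RAP2.6L, ERF1, ORA59 and ERF13, against 31.1% of genes. Caller settings differed, per the file headers: WT replicate 1 needed 4-fold against input and 1-fold against the local region, the other 5 lists 3-fold and 4-fold. WT replicate 1 also had fewer tags than WT replicate 2, at 10302678 and 15765419. Its share of tags in peaks was lower as well, at 24.26% against 41.83%. That share was 42.51% and 35.3% in the brm replicates, and 6.02% and 5.14% in the arp6 replicates. The 6 members that WT replicate 2 held and WT replicate 1 did not thus cannot be told apart from the effect of caller settings, depth and ChIP enrichment.

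H2A.Z on ORA59 and ERF1 was the most widely found, in 5 of 6 lists each. On ORA59 peaks covered 61.8% and 0% of the gene span in the arp6 replicates, and 95% and 84.4% in the brm replicates, against 86.6% and 91.5% in the WT replicates. The peak of brm replicate 1 ran over chr1:1882903-1883938 and that of WT replicate 2 over chr1:1882853-1883900, in TAIR10 coordinates. On ERF1 they covered 50.7% and 0% in arp6 and 90.5% and 91.7% in brm, against 62.1% and 80.5% in WT.

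RAP2.6 had no peak in either arp6 replicate, peaks over 62.8% and 64.2% of its span in the brm replicates, and over 0% and 54.9% in the WT replicates. The brm peaks lay at chr1:16263759-16264521 and chr1:16263773-16264536 and the WT peak at chr1:16263886-16264511, so all 3 covered the same stretch. ABR1 had a peak over 27.1% and 0% in brm and 0% and 31% in WT, and none in arp6. Both ABR1 peaks, at chr5:25891434-25892110 in brm and chr5:25891498-25892253 in WT, lay on the same stretch of the gene. The genes picked for high RNA in brm thus had peaks in brm where WT replicate 2 had them, in 1 list for ABR1 and in both for RAP2.6.

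Among the genes that rose in arp6, ERF6 had no peak in either arp6 list or either brm list, against 0% and 58.9% of its span in the WT replicates. ERF104 had none in arp6 and 0% and 54.6% in brm, against 0% and 63.8% in WT. ERF13 had none in arp6, 71.4% and 56.4% in brm, and 56.3% and 45% in WT. ERF105 had a peak of 501 bp over 51.9% of its span in arp6 replicate 1 and none in replicate 2, and 51.9% and 0% in brm, against 0% and 94.3% in WT. ERF5, which was not called, had none in arp6 and 0% and 38.5% in brm, against 0% and 50.7% in WT. With 2 lists against 2, an exact test cannot pass 0.05, so none was made.

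**Figure D4:**
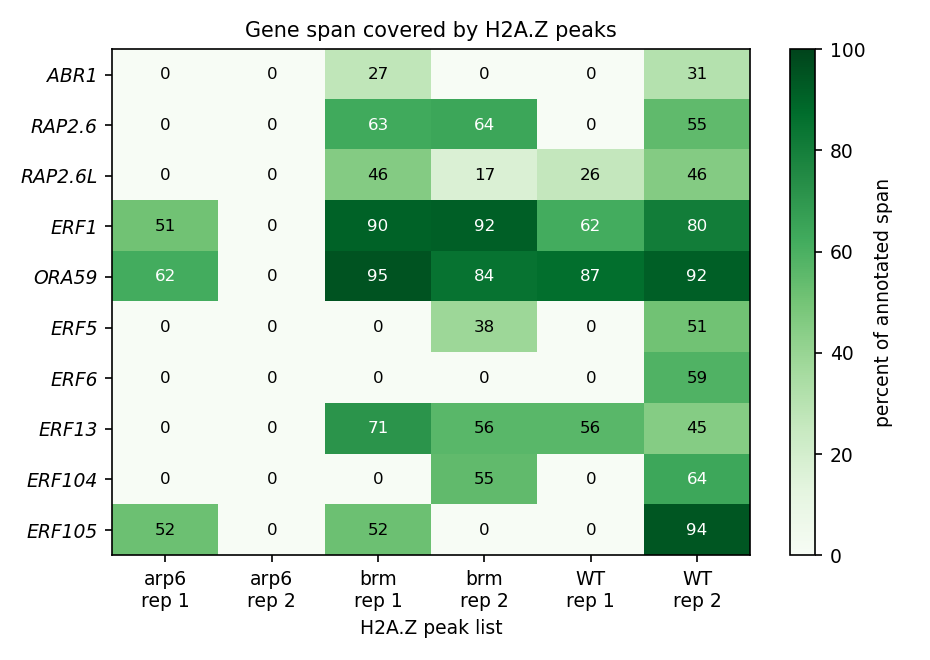
Percent of the annotated span of each ERF gene (rows) that a deposited H2A.Z peak covers in each peak list (columns: arp6, brm and WT, 2 replicates each). Cells give the percent, and arp6 replicate 2 is at 0 for all 10 genes and WT replicate 2 lies between 31 and 94.

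Nucleosomes at the members were read from the deposited tables of positions, which compare 1 pooled data set per genotype. A position was called at an authors' FDR under 0.05 and a log2 fold change of 1 or more in either direction. Within the gene spans of the members, 0 of 89 positions were called in arp6, where 5.24% of all 701877 positions were. In brm 4 of 89 were called, or 4.49%, where 4.2% of all positions were. In arp6;brm 4 of 92 were called, or 4.35%, where 4.77% of all were. These shares lie near or under the background, which also takes in positions between genes. By gene, a called position lay in no member in arp6 and in 4 of the 10 in both brm and arp6;brm. Of all genes with at least 3 positions, 22.4%, 41.4% and 33.2% held one in arp6, brm and arp6;brm. The gene bodies of the members thus did not stand out by count of calls. The median log2 fold change of occupancy over the members' positions was -0.05 for arp6, 0.08 for brm and -0.02 for arp6;brm, against 0.02, 0.09 and 0.08 over all positions, from the authors' deposited values.

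The called positions lay in 5 genes. In RAP2.6 the position at 16264462 on chromosome 1 had an occupancy signal of 212 in brm against 68 in WT, and that at 16263807 had 320 in arp6;brm against 148 in WT, per the authors' deposited tables. Both are higher in the mutant. In ABR1 the position at 25892872 on chromosome 5 had a signal of 98 in arp6;brm against 228 in WT per the authors' deposited table. ERF13 had 1 position higher in brm, at 136 against 42 in WT, and another lower in arp6;brm, at 104 against 236 in WT. ERF6 had 1 position at 44 in brm against 124 in WT, and another at 136 in arp6;brm against 274 in WT. ERF1 had 1 position at 178 in brm against 74 in WT. In brm 3 of the 4 called positions were higher than in WT and 1 was lower, where 2.32% and 1.88% of all positions were. In arp6;brm 1 was higher and 3 were lower, where 1.88% and 2.88% of all were. In arp6 there was none in either direction, where 1.05% were higher and 4.2% lower.

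Occupancy was low over ERF5, ERF6 and ERF104 in all 4 genotypes. The median signal over the positions in ERF5 was 114 (arp6), 112 (brm) and 82 (arp6;brm), against 92 to 124 in WT across the 3 tables. In ERF6 it was 92, 85 and 74 in the same order, against 106 to 121 in WT, and in ERF104 it was 128, 124 and 121, against 101 to 128 in WT. The median of all genes in WT was 187 to 188, and 132 was the 5th percentile. Low occupancy over these 3 genes was thus present with and without the mutations. ERF105, by contrast, had a median signal of 188 for arp6, 199 for brm and 149 for arp6;brm, against 190 to 194 in WT. In arp6;brm the median log2 fold changes of ERF105 and ERF6, -0.61 and -0.58, lay at the 0.832 and 0.878 percentiles of all genes with enough positions, per the authors' deposited values. Those of ERF5 and ERF13 were -0.38 and -0.25, at percentiles of 1.56 and 3.21. ORA59, ERF1 and ERF104 lay on the other side, with 0.33, 0.29 and 0.27 at percentiles of 91.2, 86.1 and 83.7. RAP2.6L had -0.05, ABR1 0.05 and RAP2.6 0.13, at percentiles of 16.2, 33.6 and 55.9. In brm the members ran from ERF6, with -0.17 at percentile 3.32, to RAP2.6, with 0.45 at percentile 95.7. In arp6 they ran from ERF6, with -0.28 at 5.26, to ERF1, with 0.41 at 96.9. The medians of ERF105 and ERF6 in arp6;brm rest on 6 and 7 positions and were ranked beside genes of any length. The members thus lay on both sides, and no replicate spread was available for any of them.

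ORA59 was the member with a genomic deletion nearby. The authors called a deletion of 400 bp in arp6 at positions 1881901 to 1882300 of chromosome 1, which lies 606 bp from the lower-coordinate end of the annotated gene. The next nearest deletion to any other member was 11318 bp away, beside ERF5, and the nearest to RAP2.6, which fell in arp6, was 28155 bp away. A deletion lay within 1000 bp of 6.11% of protein-coding genes, so 1 of 10 is near that share. The nucleosome tables show the same stretch. The positions at 1881902, 1882022, 1882192 and 1882332 had signals of 10, 0, 0 and 16 in arp6, and 8, 0, 0 and 0 in arp6;brm. WT had 126, 164, 158 and 218 there in the same tables. In brm, which does not carry the arp6 mutation, the positions at 1882037, 1882187 and 1882337 had 218, 130 and 180, against 164, 150 and 218 in WT. Signal was thus missing in both lines with the arp6 mutation and present in brm and WT. At 1882527, the next position toward the gene, it was 318 in arp6 and 306 in arp6;brm, against 288 in WT. Over the gene itself no position of ORA59 was called in any of the 3 comparisons. Whether the missing stretch bears on ORA59 RNA was not tested, and ORA59 was not called in arp6 or arp6;brm.

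**Figure D5:**
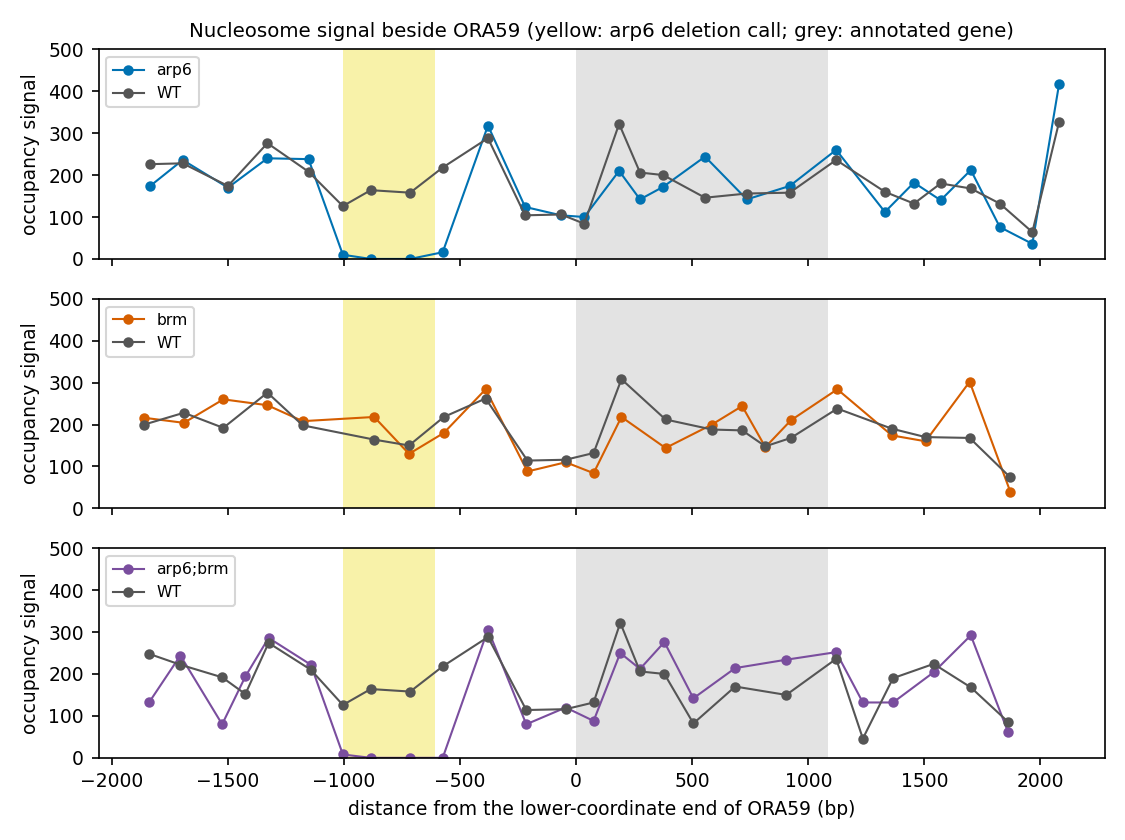
Nucleosome occupancy signal (y axis) against the distance in bp from the lower-coordinate end of ORA59 (x axis) in arp6, brm and arp6;brm, each with WT, from the authors' deposited tables. Yellow marks the called arp6 deletion and grey the annotated gene. The signal is 10 or less inside the deletion in arp6 and arp6;brm and not in brm.

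With 1000 bp on each side of the gene spans, 6 of 207 positions were called in arp6, 7 of 208 in brm and 12 of 209 in arp6;brm. These counts include the gene spans, and the flanks alone were not counted. The shares are 2.9%, 3.37% and 5.74%, beside 5.24%, 4.2% and 4.77% of all positions. Gene spans with their flanks thus did not stand out by count either. This wider span was chosen after seeing the data, since the annotation used gives no strand. The deleted stretch by ORA59, with its edge, gave 3 of the 6 in arp6 and 3 of the 12 in arp6;brm. Beside ABR1, the position at 25894862, 974 bp beyond the gene, had 318 in brm against 116 in WT. That at 25894432, 544 bp beyond the gene, had 40 in arp6;brm against 228 in WT. Beside ERF5, the position at 19179792, 89 bp before the lower-coordinate end, had 38 in brm against 156 in WT.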

How the data were processed

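Members and gene lists were chosen with earlier results of these data known. For RNA-seq, the authors deposited comparisons made with edgeR, per the labels, holding a log2 fold change, a mean log2 CPM, a p-value and its adjusted value for each gene. TopHat2, HTSeq, Bowtie2, BWA, SAMtools, HOMER and the build TAIR10 are named in the submitters' processing notes. Counter rows that name no gene held 66.9%, 69.3% and 70.7% of counts in the tables of arp6, brm and arp6;brm. They were left out of gene counts but stand in the CPM denominators. The deposited adjusted p-values were used as they stand, because no counts were given for the planned count model. Replicates are biological per the series design text, and p-values measure the spread between those libraries. Levels per genotype were solved as described, with equal weight for both groups. A standard error was implied as the log2 fold change over the normal quantile of the deposited p, and intervals cover 95%.

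The authors called H2A.Z peaks with HOMER in histone style against input, per the file headers, and the deposited score column holds 1 constant value per list. The authors deposited occupancy signal, log2 fold changes, FDR values and fuzziness scores for nucleosomes, 1 pooled data set per genotype. The read sampling and smoothing are not given in the sources used here. Gene spans came from a RefSeq gene table of TAIR10.1 and none of its coordinates is printed. WT replicate 2 peaks lay in genes for 81.3% to 83.4% of their length by chromosome, and for 59.2% to 62.3% with the annotation moved by 1000 bp. The table gives no strand, so gene spans replaced the planned windows at the gene start. Overlap needed 1 bp, and per-gene medians at least 3 positions. All 10 members were named. From each list called genes were named, at most 4 per list and table, with genes of average log2 CPM of at least 0 and large changes first, as well as adjacent genes and the 3 nearest to ABR1 and to RAP2.6. Alternatives changed the thresholds, filters, overlaps and replicates. The adjustment of p-values was tested on simulated data, and peak overlap on made-up intervals. The check of solved levels left out low averages and drew no reads, so it does not cover levels near the bottom of the tables. Nucleosome and nearest-gene steps were not simulated. Calculations used scipy 1.17.1, pandas 2.3.3 and numpy 2.4.6 under Python 3.11.15, with matplotlib 3.10.9 for figures.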

Additional observations from a re-analysis of the deposited data

How the results depend on the processing

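Of 63 alternatives of the counts, 42 stayed within 1.5 times the reported count. At an adjusted p under 0.01, 3 members remained called in arp6 (5 reported), 1 in brm (3) and 0 in arp6;brm (2). Under 0.2, 5 were called in brm and 5 in arp6;brm. That cutoff takes in many genes, as ERF13 in brm, with a deposited adjusted p of 0.191, ranked 5077 by p among 21925 genes. Requiring a log2 fold change of 1 or more in either direction left 1 called in arp6;brm. Genes called over the 72 genes of the 9 context lists numbered 16 for arp6, 20 for brm and 13 for arp6;brm. The shares of all genes called were 6.03%, 13.8% and 13.3%. Context list genes called numbered 10 in arp6 and 7 in arp6;brm with that fold change requirement, and 8 in arp6;brm under 0.01. Shares of all genes at these other cutoffs were not computed, so the member and list counts there have no background beside them. Members with an H2A.Z peak in at least 1 replicate were 3 in arp6, 9 in brm and 10 in WT. Leaving out 1 replicate gave 0 to 3 in arp6, 7 in brm and 4 to 10 in WT. Called nucleosome positions were 1 in brm and 0 in arp6;brm at an FDR under 0.01. With 1000 bp on each side they were 6 for arp6, 7 for brm and 12 for arp6;brm, a span chosen after seeing the data. Their shares stand above beside those of all positions. Of 141 alternatives for single members, 9 ended a call and 6 made one. They changed cutoffs and filters and recomputed no fold change, so they could not show a change of direction. RAP2.6 in arp6 lost its call at 0.01 and is removed by a filter at an average log2 CPM of 0. No paired analysis was possible because the tables hold no value per library. The planned windows at the gene start, for H2A.Z and for nucleosomes, were not run because the annotation gives no strand. Depth per RNA library is unknown, and members at the bottom of the tables (ABR1 and ERF1 in WT, RAP2.6 in arp6 and arp6;brm) have fold changes of uncertain size.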
